A study of Arabidopsis thaliana with 27 samples.

Results

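The first hour after Arabidopsis thaliana seedlings were moved from 22 to 27 °C was followed in 4 RNA-seq libraries, chosen by their titles from the 27 of the study. The study took RNA from whole wild type seedlings of the accession Col-0, a standard laboratory strain, after a sudden rise in temperature. Moved seedlings were collected at 15 min and 1 h after transfer to 27 °C (1 library each), and seedlings left at 22 °C were collected beside them at the same times (1 library each). The same experiment has 3 further libraries, at 4 h after the move, and at 0 min and 4 h at 22 °C, which are given as values beside the first hour. The remaining libraries follow moves of the same strain that start at 17 °C, and those of the 17 to 27 °C move at 15 min and 1 h (4 moved to 27 °C and 4 left at 17 °C) are used here for comparison. The labels give a single growth condition, 10 days at 17 °C in long days with the move 1 h after dawn, and do not describe how the 22 °C plants were raised. No transgene or mutation is named in any group.

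The 4 libraries held 6278278 and 6583750 counts in the seedlings moved to 27 °C, and 9161247 and 10646120 in those left at 22 °C, so the moved samples were the shallower ones. Counts from chloroplast and mitochondrial genes took 0.313 to 0.364% of each. Transcripts of 20 light harvesting and Rubisco genes, which mark green shoot tissue, summed to 48580 and 54700 CPM (counts set to one common depth) after the move and to 50170 and 50910 CPM at 22 °C. Transcripts of 14 root genes summed to 195 and 205 CPM after the move and to 219 and 299 CPM at 22 °C. Transcripts of shoot and of root were both present, and 13 of the 14 root genes had a count in all 4 libraries. Each temperature and time is 1 library labelled as the first replicate, and the labels do not say whether cultures were separate. The p-values below therefore measure only the spread between these samples, which may be technical.

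When proteins begin to unfold, plant cells activate heat shock factors (HSFs), transcription factors that bind heat shock elements and switch on genes for molecular chaperones. Small heat shock proteins hold unfolding proteins in a soluble state, HSP70 and HSP90 machines refold them with the help of co-chaperones, and HSP101 pulls aggregates apart. Milder warmth is also known to promote elongation growth through PIF4 and auxin, a programme called thermomorphogenesis, and both ranges of temperature have been tied to the removal of the histone variant H2A.Z from genes.

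The move changed 405 of 19155 tested genes, 2.11% of them, with edgeR's quasi-likelihood test at an adjusted p under 0.05. Of these, 277 (1.45%) were higher at 27 °C and 128 (0.668%) were lower. The rises were the larger changes. Among the higher genes 183 changed by at least 1 on the log2 scale, 55 by at least 2 and 16 by at least 4, while among the lower genes 66, 13 and 0 passed these sizes. The test combined the 2 pairs with time as a term, which leaves 1 residual degree of freedom. A gene's own spread is then the gap between its 15 min and 1 h effects. The test weighed it together with a spread borrowed from the other genes, which counted for a median of 8.8 degrees of freedom. The small p-values depend on this borrowing. A large response of unequal size at the 2 times could still miss the threshold. Among genes at mean log2 CPM of 3 or more, 22 rises and 3 falls of log2 size 1 or more at both times missed it. Not all of these were unequal in size. The falls of AT4G27840 (-1.08 and -1.06) and LEA4-5 (-1.07 and -1.17) were near-equal at the 2 times. Under edgeR with the spread taken from all 27 libraries, no gene passed the adjusted threshold and 1427 had an unadjusted p under 0.05, and with the replicate numbers of the duplicated groups entered as a block in that fit 129 passed (0.580%, with 86 or 0.387% higher and 43 or 0.193% lower), 91 of them among the 405.

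**Figure D1:**
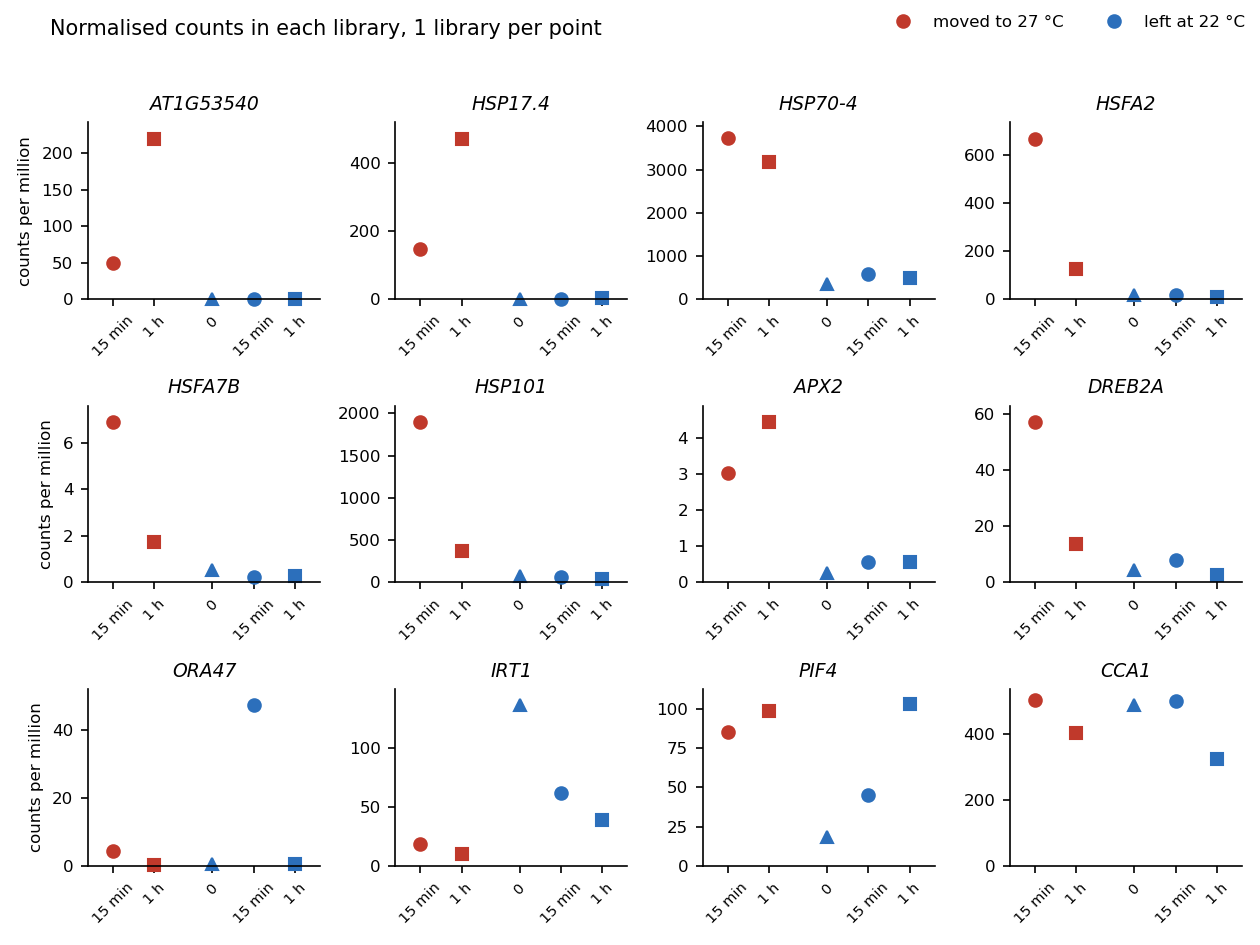
Normalised counts (CPM, linear vertical axes starting at 0) of 12 genes in each library, with libraries moved to 27 °C on the left in red and libraries left at 22 °C on the right in blue, including the 22 °C library taken at 0 min. HSP70-4 lies at 3731 and 3170.1 CPM after the move and at 581 and 498 CPM at 22 °C, HSFA2 and HSP101 are higher at 15 min than at 1 h after the move, and ORA47 is high in 1 library only.

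Small heat shock proteins had the highest fold changes. Of 19 listed members, 17 had enough counts to be tested, 12 of these were higher at 27 °C, none was lower, and the median log2 fold change was 4.30, against -0.0022 over all tested genes. HSP17.4, a cytosolic class I member (chromosome 3, 16984118 to 16984841, TAIR10, overlapping AT3G46220), had 146 and 470.3 CPM at 15 min and 1 h after the move, against 1.12 and 3.45 CPM at 22 °C. Its 2 moved libraries were far above both 22 °C ones, at 130.2 and 136 times the level of their time, and the log2 fold change over both times was 7.07 ± 0.19 (SE, adjusted p = 7.31e-08, edgeR). HSP17.6A, of cytosolic class II (chromosome 5, 3884107 to 3884737), had 194 and 288 CPM after the move and 1.45 and 1.86 CPM at 22 °C, a log2 fold change of 7.17 ± 0.19 (SE).

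The neighbouring class II gene HSP17.6II had 157 and 320.1 CPM after the move and 2.01 and 2.80 CPM at 22 °C. AT1G53540, annotated as an HSP20-like chaperone (chromosome 1, 19980462 to 19981109), had 49.8 and 219.7 CPM after the move and 0.224 and 0.746 CPM at 22 °C, with a log2 fold change of 8.08 ± 0.24 (SE, adjusted p = 9.21e-08, edgeR). In these genes the 22 °C levels were a few CPM or less. They were picked for large changes, so groups that do not overlap add no support. For HSP23.6, whose protein is imported into mitochondria, the libraries moved to 27 °C held 90 and 286 counts and those left at 22 °C held 1 and 0. The ratio was 606 with an exact 95% counting interval of 108 to 24017, which covers counting error only. HSP21, the chloroplast member, had too few counts to be tested, with 5 and 13 at 27 °C and 0 and 0 at 22 °C. Set against a floor of 3 counts over the 22 °C libraries together, it was at least 9.68-fold higher.

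The family was not uniform. AT1G07400 had 553 and 437 CPM after the move and 9.17 and 8.58 CPM at 22 °C, and AT2G29500 had 187 and 331 CPM after the move and 5.48 and 5.31 CPM at 22 °C. AT1G59860 was higher at 15 min than at 1 h after the move, with 309.8 and 92.2 CPM, against 4.03 and 3.92 CPM at 22 °C. Members without a call were of 2 kinds. AT1G54050 was high in both moved libraries, at 365 and 113 CPM against 16.4 and 14.9 CPM at 22 °C, with a log2 fold change of 3.71 ± 0.49 (SE) and an edgeR adjusted p of 0.112. HSP18.2, in contrast, had 4.38 and 9.68 CPM after the move and 3.80 and 3.45 CPM at 22 °C, and AT5G54660 had 8.42 and 11.7 CPM against 9.62 and 7.37 CPM. Small heat shock protein genes are close relatives and some stand in tandem, so reads may have been divided between copies.

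Promoter stretches that hold heat shock element cores are shown for AT1G53540, HSP17.6A and HSP17.4. These small heat shock protein genes had among the largest rises and were picked because their promoters held cores. HSP23.6, HSP17.6II, AT1G07400, AT2G29500 and AT1G59860 also had among the largest rises. Their promoters held no core in the 250 bases searched, so no stretch is shown for them. The stretches are taken 5′ to 3′ on the gene's strand from the RefSeq assembly TAIR10.1, upstream of the RefSeq start. The cores GAANNTTC and TTCNNGAA are in capitals, overlapping cores running together. The stretch of AT1G53540 is chr1:19980231-19980273 on the plus strand, that of HSP17.6A is chr5:3884839-3884875 on the minus strand, and that of HSP17.4 is chr3:16984868-16984981 on the minus strand.
AT1G53540: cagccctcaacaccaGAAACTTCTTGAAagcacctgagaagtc
HSP17.6A: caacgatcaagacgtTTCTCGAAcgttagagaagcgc
HSP17.4: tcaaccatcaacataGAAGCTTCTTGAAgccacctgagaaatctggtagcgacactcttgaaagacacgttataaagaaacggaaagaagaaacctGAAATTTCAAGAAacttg

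HSP17.4 holds 4 cores in this window, in 2 overlapping pairs, the nearest 5 bases from the RefSeq start. AT1G53540 has 1 overlapping pair, and HSP17.6A a single core 14 bases from its RefSeq start. Over all genes, 16.3% of 37897 promoters of 250 bases hold at least 1 core on either strand (each core is its own reverse complement). The share was 24.2% of the 277 higher genes, 36.4% of the 55 higher by at least 2 on the log2 scale and 36.8% of the 19 small heat shock proteins, against 16.4% of the 128 lower genes. A pair of overlapping cores forms an element of 3 units, which was in 0.385% of all promoters and in 7 of the 277 higher genes (2.53%), 4 of the 55 (7.27%) and 1 of the 128 lower genes (0.781%). Among the larger chaperones 13.9% of promoters held a core. The G-box CACGTG, a motif bound by PIF and other factors, was in 5.39% of all promoters and 7.42% of those of tested genes, and in 7.58% of the higher and 11.7% of the lower genes. These are descriptions of letters in a short window, and a gene without a core here, such as HSP70-4, HSP101 or HSP90.1, may carry one elsewhere.

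Among larger chaperones and their helpers the called members were all higher at 27 °C. All 36 listed members were tested, of which 23 were higher, none was lower, and the median log2 fold change was 1.09. With the spread of all libraries and the replicate block 7 of the 36 were called higher. HSP70-4, a cytosolic HSP70 strongly induced by heat (chromosome 3, 3991261 to 3993792), had 3731 and 3170.1 CPM after the move and 581 and 498 CPM at 22 °C, a log2 fold change of 2.68 ± 0.13 (SE, adjusted p = 3.47e-06, edgeR). The 2 times differed little, at 6.42 and 6.37 times the 22 °C level. HSC70-1, its constitutive relative, had 4656 and 4058 CPM after the move and 3044 and 2710.0 CPM at 22 °C, a log2 fold change of 0.60 ± 0.12 (SE, adjusted p = 0.0379, edgeR). Per transcript length HSP70-4 lay at 1774 and 1495 TPM after the move and 284 and 251 TPM at 22 °C, while HSC70-1 lay at 2260.0 and 1948 TPM after the move and 1507 and 1385 TPM at 22 °C. On this scale HSP70-4 was below HSC70-1 in all 4 libraries, by less at 27 °C than at 22 °C.

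HSP90.1, the heat-inducible cytosolic HSP90, had 1585 and 1070.3 CPM after the move and 82.0 and 69.4 CPM at 22 °C, and its log2 fold change was 4.12 ± 0.15 (SE). The fold changes of its relatives HSP90.2, HSP90.3 and HSP90.4, which are near-identical to each other, were smaller. HSP90.2 had a log2 fold change of 1.25 ± 0.20 (SE, adjusted p = 0.0327, edgeR), and HSP90.3 and HSP90.4 had 0.83 and 0.46 and did not pass, although reads may be shared among these 3 copies. Co-chaperones of this machine were among the largest changes. ROF2, an FKBP-type prolyl isomerase, had 786 and 1409 CPM after the move and 28.5 and 37.4 CPM at 22 °C. Hop3, which links HSP70 to HSP90, had 646 and 572 CPM after the move and 40.4 and 37.1 CPM at 22 °C, with a log2 fold change of 3.98 ± 0.14 (SE). Of its relatives, Hop2 had a log2 fold change of 0.72 and was called higher, and Hop1 had -0.01 and was not. HSP70T-2, a truncated HSP70, had 154 and 114 CPM after the move and 8.39 and 9.04 CPM at 22 °C.

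Chaperones of the organelles were called as well. HSP90.5, in the chloroplast, and HSP90.6, in mitochondria, had log2 fold changes of 1.13 and 1.10, and the mitochondrial members CLPB4, HSP60, CPN10 and MTHSC70-2 had 1.89, 1.08, 0.90 and 1.22. Their mitochondrial relatives mtHsc70-1 and HSP60-2 had 0.02 and 0.18 and did not pass. HSP101, the cytosolic disaggregase needed for acquired thermotolerance (chromosome 1, 27936508 to 27940190, overlapping AT1G74300), had 1898 and 377 CPM after the move and 69.5 and 41.8 CPM at 22 °C. Both moved libraries were well above both 22 °C libraries, at 27.3 and 9.02 times the level of their time, but the effect of 3.99 ± 0.56 (SE) on the log2 scale did not pass edgeR's test (adjusted p = 0.15). BAG6, a BAG-domain co-chaperone, had no call either, with 366 and 48.1 CPM after the move and 5.71 and 7.18 CPM at 22 °C (adjusted p = 0.531, edgeR). HSA32, linked to the duration of acquired thermotolerance, was higher at 1 h than at 15 min after the move, with 45 and 122 CPM after the move and 7.61 and 6.81 CPM at 22 °C (adjusted p = 0.0918, edgeR).

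**Figure D2:**
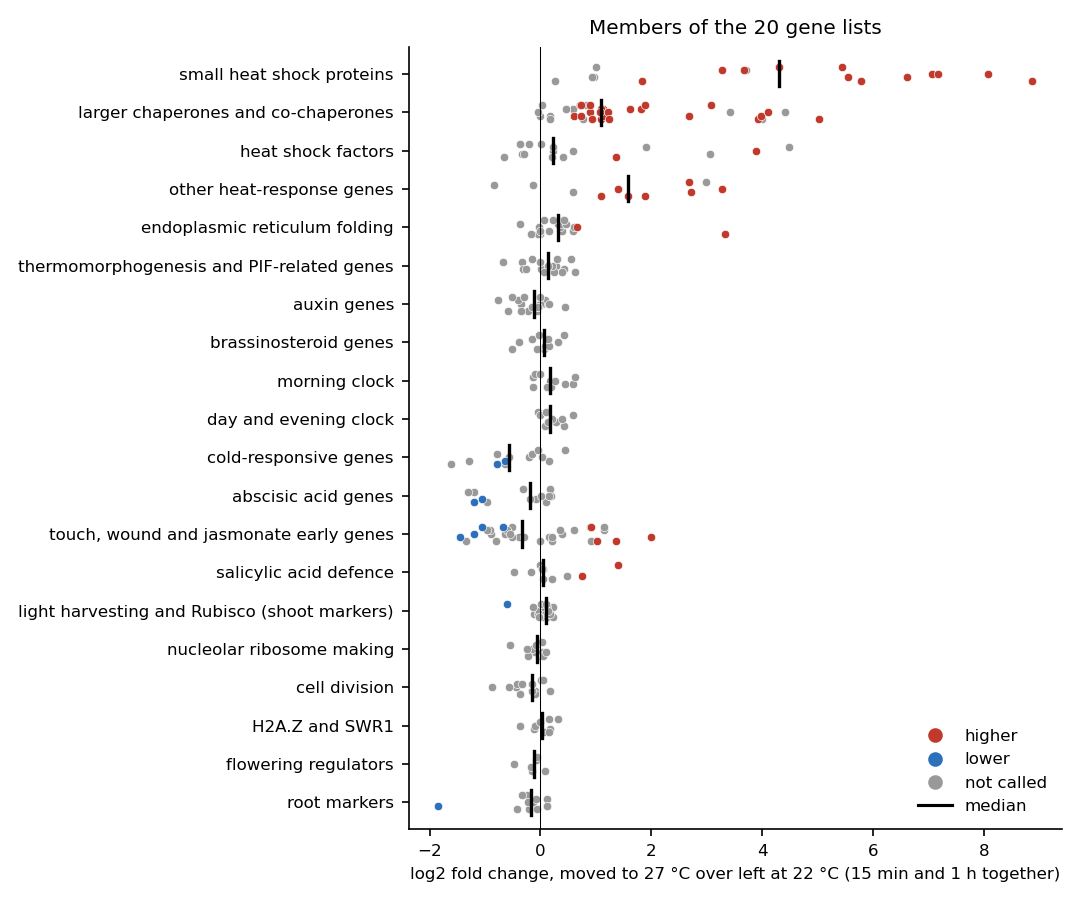
Log2 fold change over 15 min and 1 h (moved to 27 °C over left at 22 °C) of each tested member of 20 gene lists, with members called higher in red, called lower in blue and not called in grey, and the median of each list as a black bar. The medians of the small heat shock proteins (4.30), larger chaperones (1.09) and other heat-response genes (1.58) stand to the right of 0, those of the remaining lists lie between -0.56 and 0.32.

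Of 21 listed factors 16 were tested, of which 2 were higher, none was lower, and the median log2 fold change was 0.22. These 2 are set against 1.45% of all tested genes called higher, and HSFA2, HSFA7A and HSFB2B were more than 2 times their 22 °C level at both times without a call. HSFA7B had 6.90 and 1.75 CPM after the move and 0.224 and 0.280 CPM at 22 °C (41 and 11 counts against 2 and 3), and HSFB2A had 121 and 45.7 CPM after the move and 40.4 and 21 CPM at 22 °C, a log2 fold change of 1.37 ± 0.16 (SE, adjusted p = 0.00235, edgeR). HSFA2, a factor that is itself induced by heat and sustains the response (chromosome 2, 11135682 to 11137396), had 666 and 127 CPM after the move and 17.6 and 10.3 CPM at 22 °C. These are 37.9 and 12.3 times the level of their time, and the combined log2 effect of 4.49 ± 0.54 (SE) was not past edgeR's threshold (adjusted p = 0.106). HSFB2B, a repressor of the same class as HSFB2A, had 128 and 30.3 CPM after the move and 22.5 and 13.2 CPM at 22 °C (adjusted p = 0.141, edgeR). HSFA7A had 242 and 31.7 CPM after the move and 6.94 and 15.0 CPM at 22 °C (adjusted p = 0.694, edgeR). The HSFA1 group, which is expressed without heat and starts the response by activation of existing protein, had log2 fold changes from -0.37 (HSFA1E) to 0.40 (HSFA1D), none past the test.

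Of 13 other heat-response genes 11 were tested, of which 7 were higher and none was lower, with a median log2 fold change of 1.58. MBF1C, a transcriptional coactivator, had 678 and 243 CPM after the move and 52.4 and 33.8 CPM at 22 °C, a log2 fold change of 3.28 ± 0.23 (SE, adjusted p = 0.00225, edgeR). DREB2A, a transcription factor of the drought and heat responses, had 57.1 and 13.6 CPM after the move and 7.94 and 2.61 CPM at 22 °C. APX2, a cytosolic ascorbate peroxidase known as an HSF target, stayed low in level but above its controls, with 3.03 and 4.44 CPM after the move and 0.559 and 0.559 CPM at 22 °C. The splicing factors SR45a and SR30 had log2 fold changes of 1.89 ± 0.20 and 1.41 ± 0.20 (SE), the galactinol synthase GolS1 had 1.58 ± 0.21 (SE), and BOB1, a small chaperone with a NudC domain, had 1.09 ± 0.14 (SE).

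Promoter stretches of 4 regulators and enzymes of these lists are shown beside those of the chaperones. The assembly is the same, and the same cores are in capitals. The 4 genes were more abundant at 27 °C at both times and were picked because their promoters held cores. MBF1C, SR45a and HSFB2A were also called higher, but their promoters held no core in the 250 bases searched. HSFA2 is at chr2:11135521-11135613, HSFA7B at chr3:23399064-23399156, APX2 at chr3:2955993-2956117 and DREB2A at chr5:1602026-1602068, all on the plus strand.
HSFA2: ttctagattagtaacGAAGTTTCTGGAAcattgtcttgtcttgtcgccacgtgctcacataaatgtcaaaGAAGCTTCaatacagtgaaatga
HSFA7B: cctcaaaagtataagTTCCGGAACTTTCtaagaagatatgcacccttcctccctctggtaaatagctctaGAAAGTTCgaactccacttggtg
APX2: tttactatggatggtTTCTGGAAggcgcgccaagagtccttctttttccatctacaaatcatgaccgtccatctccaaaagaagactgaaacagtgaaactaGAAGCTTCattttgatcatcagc
DREB2A: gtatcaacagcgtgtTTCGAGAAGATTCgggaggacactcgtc

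HSFA2 and HSFA7B each hold an overlapping pair and a separate core, DREB2A an overlapping pair, and APX2 a pair of separate cores. HSFA2 also has the G-box between its cores, and these 4 genes were picked for display after the motif search.

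In the endoplasmic reticulum, where unfolded proteins trigger a separate response, 2 of 21 tested folding genes were higher and none was lower. Over all tested genes 1.45% were higher and 0.668% lower. The median log2 fold change of the list was 0.32. ERDJ3A, a luminal J-domain co-chaperone, had 99.4 and 39.0 CPM after the move and 7.72 and 5.22 CPM at 22 °C, a log2 fold change of 3.33 ± 0.21 (SE, adjusted p = 0.000112, edgeR). BIP1, a luminal HSP70, had 406 and 452 CPM after the move and 272 and 272 CPM at 22 °C, a log2 fold change of 0.66 ± 0.13 (SE, adjusted p = 0.0297, edgeR). BIP2 was tested and not called, and whether reads were shared between BIP1 and BIP2 was not tested. The transcript of BZIP60, a transcription factor of the unfolded protein response, had a log2 fold change of -0.36 and BZIP28 one of 0.58, and neither passed. TIN1, a gene named for its induction by tunicamycin, a drug that causes unfolding in this compartment, was seen among the called genes and lies outside the list. It had 96.3 and 73.2 CPM after the move and 8.17 and 8.02 CPM at 22 °C, a log2 fold change of 3.38 ± 0.17 (SE).

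No gene of the thermomorphogenesis list was called among 17 tested, and the median log2 fold change was 0.14. Over all tested genes 2.11% were called, a share at which a list of this size may hold none. PIF4, the transcription factor at its centre (chromosome 2, 17886427 to 17889050), had 85.4 and 98.7 CPM after the move, against 44.9 and 103 CPM at 22 °C. The 2 groups overlapped. At 15 min the moved library was 1.90 times its control and at 1 h 0.958 times, and the combined effect of 0.42 ± 0.26 (SE) on the log2 scale had an edgeR adjusted p of 0.563. In the unmoved seedlings PIF4 lay at 18.3, 44.9 and 103 CPM at 0 min, 15 min and 1 h. YUC8, an auxin synthesis gene downstream of PIF4, had 1.68 and 3.81 CPM after the move and 1.01 and 4.20 CPM at 22 °C. The largest changes at a mean log2 CPM of at least 3 were those of HFR1, an inhibitor of PIF factors, and HY5, a factor of light signalling, with log2 fold changes of 0.63 and 0.55 (adjusted p = 0.286 and 0.138, edgeR).

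Several other lists had no call in the first hour. None of 18 auxin genes, 11 brassinosteroid genes, 11 morning clock genes, 10 day and evening clock genes, 12 nucleolar genes, 14 cell division genes, 10 genes of H2A.Z and its exchange complex SWR1 and 6 flowering regulators passed the test, against 2.11% of all tested genes. Their medians ran from -0.15 for cell division to 0.17 for both clock lists. GH3.5, an auxin-conjugating enzyme, had a log2 fold change of 0.44 and the auxin repressor IAA14 had -0.50, while BR6OX2 and ROT3, of brassinosteroid synthesis, had 0.42 and 0.32. RVE1, a morning clock relative, had 0.63 (adjusted p = 0.0571, edgeR), PRR7, a clock repressor, had 0.59, and of the evening complex LUX had 0.60 and ELF3 had 0.28. The nucleolar genes FIB2 and NAP57 had -0.55 and -0.24, the flowering regulators SOC1 and SVP had -0.48 and -0.17, and AT5G10390 and AT3G46320 of the cell division list had -0.87 and -0.57. CCA1, the core morning clock factor, had 503 and 406 CPM after the move and 503 and 324 CPM at 22 °C. HTA8, a minor H2A.Z gene, had 8.08 and 7.78 CPM after the move and 9.62 and 10.9 CPM at 22 °C, and SWC2, a subunit of SWR1, had 11.8 and 16.3 CPM after the move and 11.7 and 13.2 CPM at 22 °C. A missed threshold does not show that a gene was unaffected.

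Falls were fewer in the lists, and over all tested genes 0.668% were lower and 1.45% higher. Of 13 tested cold-responsive genes 2 were lower and none was higher, with a median log2 fold change of -0.56. KIN1 and KIN2, neighbouring and closely similar cold-induced genes, had log2 fold changes of -0.78 ± 0.17 and -0.64 ± 0.13 (SE, adjusted p = 0.0488 and 0.0336, edgeR). KIN2 had 165 and 108 CPM after the move and 253 and 171 CPM at 22 °C. COR15A and COR15B, chloroplast proteins that protect membranes in the cold, had -1.28 and -1.62 and did not pass (adjusted p = 0.163 and 0.109, edgeR). Of 13 tested abscisic acid genes HAI1, a phosphatase of the signalling pathway, and RAB18, a dehydrin, were lower, with log2 fold changes of -1.19 and -1.06, none was higher, and the median was -0.18. The direction of RAB18 did not hold when a pair was left out, its log2 fold change running from -1.49 to 0.30 over these fits, the highest without the 1 h pair and with the 4 h pair added. RD20, a caleosin induced by drought and among the 10 largest falls, had 34.9 and 6.98 CPM after the move and 79.3 and 29.3 CPM at 22 °C.

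Of 32 tested genes of touch, wounding and jasmonate 4 were higher and 4 were lower, against 1.45% and 0.668% of all tested genes. The median log2 fold change of the list was -0.34. With the spread of all libraries and the replicate block 1 was higher and 6 were lower. Higher were ERF104, an ethylene response factor, with 119 and 51.1 CPM after the move and 31.7 and 11.8 CPM at 22 °C, the calmodulin-like gene TCH3, with 207 and 759.9 CPM after the move and 97.9 and 249 CPM at 22 °C, the zinc finger gene ZAT12 and the cell wall enzyme gene TCH4. Lower were LOX3 and OPR3, enzymes of jasmonate synthesis, the jasmonate-induced storage protein VSP2 and the repressor JAZ2. OPR3 had 42.8 and 33 CPM after the move and 103 and 72.7 CPM at 22 °C, a log2 fold change of -1.20 ± 0.14 (SE, adjusted p = 0.00235, edgeR). Outside the list, and chosen after their values were seen, AOC1, AOC2 and OPCL1, further enzymes of the same route, had log2 fold changes of -0.84, -0.97 and -1.0, and VSP1 had -1.14.

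This list also moved in seedlings that stayed at 22 °C. All 32 tested members were above their 0 min level in the unmoved 15 min library, by a median of 2.30 on a log2 scale of CPM + 1, and all 32 were above it in the moved 15 min library, by 1.89. At 1 h at 22 °C the unmoved median was 1.04. Cold-responsive genes likewise had an unmoved median of 0.97 at 15 min, while the small heat shock proteins had 0.15 and the larger chaperones 0.07. ORA47, an AP2/ERF factor that activates jasmonate synthesis, had the largest fall at a mean log2 CPM of at least 3. It had 4.38 and 0.317 CPM after the move, and 0.625, 47.3 and 0.466 CPM at 0 min, 15 min and 1 h at 22 °C, so its log2 fold change of -3.25 ± 0.38 (SE) rests on 1 high library, and at 1 h only 2 counts stood against 5. The part of this early rise at 22 °C in the calls of the list was not tested.

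A pair of iron uptake genes stood among the 10 largest falls. IRT1, the main iron transporter of the root surface (chromosome 4, 10707426 to 10709015), had 18.9 and 9.68 CPM after the move and 61.9 and 39.1 CPM at 22 °C, a log2 fold change of -1.84 ± 0.17 (SE, adjusted p = 0.000423, edgeR). FRO2, the ferric chelate reductase that acts before it, had 8.42 and 4.13 CPM after the move and 42.5 and 18.2 CPM at 22 °C, a log2 fold change of -2.25 ± 0.19 (SE). The groups did not overlap in either gene, which adds no support since both were picked as large falls. At 22 °C IRT1 also lay at 136 CPM at 0 min and FRO2 at 88.8 CPM. IRT1 was the only 1 of 12 tested root markers that was called, against 2.11% of all tested genes. The list median was -0.17, and the summed root marker levels given above include IRT1. In these bulk samples fewer cells of a type and less RNA per cell cannot be told apart. Iron genes had no list of their own, and others, chosen after their values were seen, went either way. OPT3, a transporter that loads iron into the phloem, had 249 and 80.5 CPM after the move and 448 and 229 CPM at 22 °C. The ZIP transporter gene IRT3 was called higher, with a log2 fold change of 0.85, as were the ferritin genes FER4 and FER3, for iron storage proteins, with 0.99 and 0.74.

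The remaining large falls included CYP71A13, an enzyme of camalexin synthesis, at -2.67 ± 0.38, and MYB47, an R2R3 MYB factor, at -2.49 ± 0.24 on the log2 scale (SE, adjusted p = 0.0126 and 0.000793, edgeR). AT2G30766, next to CYP71A13 and overlapping AT2G30760, had 5.22 and 0.794 CPM after the move and 26.6 and 5.03 CPM at 22 °C. AT2G18150, a peroxidase, had 4.38 and 2.86 CPM after the move and 15.0 and 13.8 CPM at 22 °C. AT3G27250 and AT5G62210 completed the list, at -2.28 and -1.64. Of 20 tested light harvesting and Rubisco genes LHCB1.4 alone was called, at -0.60 ± 0.13 (SE, adjusted p = 0.048, edgeR), and the median was 0.10. Of 10 tested salicylic acid defence genes CBP60G, a calmodulin-binding regulator, and WRKY70 were higher, at 1.4 and 0.76, and the median was 0.05. The counts of these lists are set against 2.11% of all tested genes called, 1.45% higher and 0.668% lower. CBP60G lay at 20.2 and 11 CPM after the move and at 8.39 and 3.73 CPM at 22 °C, but at 0.893 CPM at 0 min. Among the 10 largest rises AT5G49920, of the Phox/Bem1p family, was the only 1 that is no chaperone or co-chaperone, with 39.1 and 6.03 CPM after the move and 0.448 and 0.653 CPM at 22 °C, and it overlaps the chaperone gene cpHsc70-2 (AT5G49910).

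**Figure D3:**
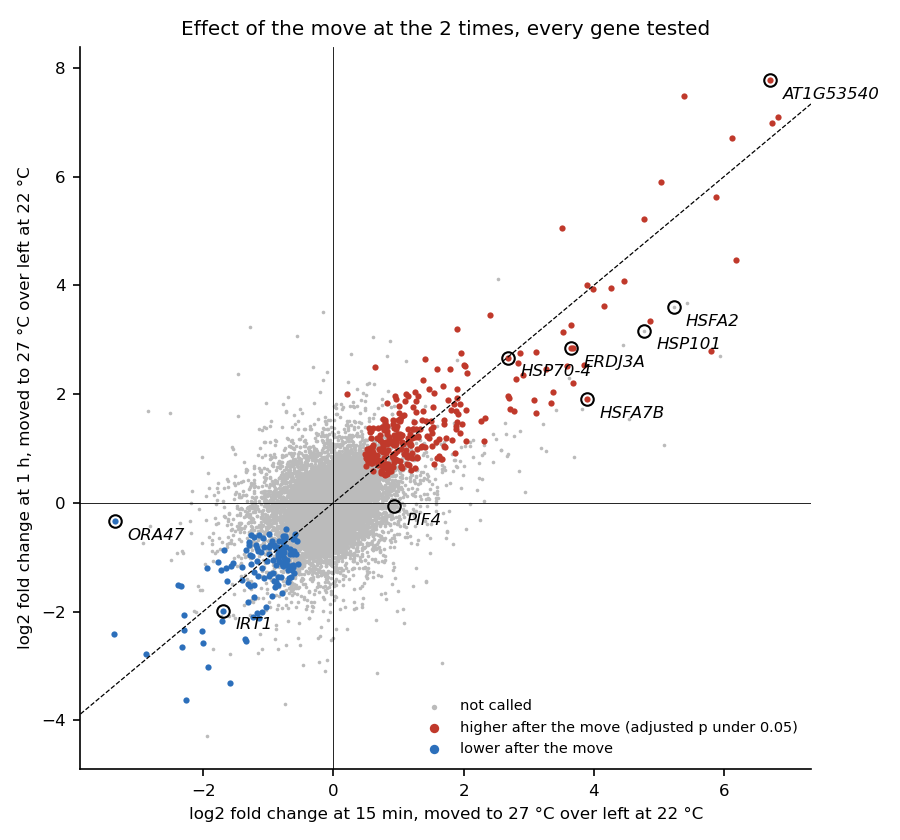
Log2 fold change of every tested gene at 15 min (horizontal axis) and at 1 h (vertical axis), moved to 27 °C over left at 22 °C, 1 library each, with a prior count of 2, and equal effects on the dashed line. All called genes (red higher, blue lower) have the same sign at both times. HSFA2 (5.22 and 3.59) and HSP101 (4.77 and 3.17) lie below the dashed line and were not called, and AT5G49920 (5.81 and 2.79) lies farther below it and was called.

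Named genes differed in which time had the larger value, without a gene passing the test of that difference. At 15 min the log2 fold changes of HSFA2, HSP101, BAG6 and HSFA7A were 5.22, 4.77, 5.94 and 5.07 (with a prior count of 2), and at 1 h they were 3.59, 3.17, 2.70 and 1.07. HSP17.4 and AT1G53540 had 6.73 and 6.71 at 15 min and 6.99 and 7.78 at 1 h. The difference between times was tested with the spread of all 27 libraries, and no gene passed the adjusted threshold in edgeR, with 401 genes at an unadjusted p under 0.05. HSFA7A had an unadjusted p of 0.0232 for this difference in edgeR, and BAG6 one of 0.0306. With the replicate block no gene passed either, and HSFA7A had an adjusted p of 0.834 (edgeR). The same fit called no gene at 15 min alone (720 at an unadjusted p under 0.05) and none at 1 h alone (1099), and with the replicate block it called 21 higher (0.0944%) and 6 lower genes (0.0270%) at 15 min, 0.121% of all, and 14 higher (0.0630%) and 1 lower (0.00450%) at 1 h, 0.0674% of all. Over the 277 higher genes the medians were 1.07 at 15 min and 1.20 at 1 h, and over the 128 lower genes -0.96 and -1.14. The test favours genes with equal effects at the 2 times, so nothing is read from this balance.

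At 4 h the levels of several of these genes after the move were lower than in the first hour. HSP70-4 lay at 472 CPM in the moved library and at 177 CPM at 22 °C, HSP17.4 at 29.5 CPM and 2.04 CPM, HSFA2 at 12.3 CPM and 5.10 CPM, and HSP101 at 72.3 CPM and 37.7 CPM. The median log2 fold change of the 277 higher genes was 0.63 at 4 h, and 235 of them (84.84%) still had the same sign, against 63.33% of all tested genes. These genes were chosen for their size at 15 min and 1 h, so a smaller median at 4 h is no finding. For the lower genes the median was -0.70, and 104 of 128 (81.25%) had the same sign. IRT1 had 0 CPM in the moved 4 h library and 6.29 CPM at 22 °C.

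A set of genes outside the lists, chosen after their values were seen, was called higher at 27 °C and had more CPM at 1 h than at 15 min at both temperatures. ASN1, an asparagine synthetase known for its induction by darkness and sugar starvation, had 11.5 and 264 CPM after the move and 2.80 and 74.7 CPM at 22 °C, a log2 fold change of 1.88 ± 0.16 (SE). DIN10, a raffinose synthase relative also named for dark induction, had 180.2 and 1155 CPM after the move and 27.4 and 348 CPM at 22 °C. BT2, a BTB and TAZ domain protein, had 38.7 and 226 CPM after the move and 9.62 and 82.0 CPM at 22 °C. In each of these the moved library was above the unmoved one of its time, while the moved 15 min library was below the unmoved 1 h one. A pair of unnamed loci also stood out. AT1G59265 had 44.6 and 31.6 CPM after the move and 4.92 and 4.38 CPM at 22 °C, and AT1G58889 had 41.1 and 29.0 CPM after the move and 4.03 and 5.03 CPM at 22 °C.

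A move to 27 °C from a lower start, and so a larger rise in temperature, was set beside this one. The 17 to 27 °C move has its own libraries at 17 °C, so the 2 comparisons share no sample. Start temperature, size of the rise, experiment and any batch cannot be told apart. In its 8 libraries at 15 min and 1 h, 82 genes were higher and 11 lower (0.401% and 0.0538% of 20459 tested, 0.455% in both directions, edgeR). Of the 277 genes higher from 22 °C, 269 were tested there, 237 (88.1%) had the same sign and 60 (22.3%) were also called higher, which is 73.2% of the 82. With the replicate number as a block, 0.476% of genes were called from 17 °C (0.418% higher, 0.0577% lower), among them 64 of the 269 and 1 of the 128. Over all genes tested in both comparisons 63.4% had the same sign. Of the 128 lower genes 102 (79.7%) had the same sign and none was called without the block. The median log2 fold change of the higher genes was 1.17 from 22 °C and 0.92 from 17 °C, and that of the lower genes was -1.01 from 22 °C and -0.33 from 17 °C. The members were chosen for their size in the 22 °C comparison, so a larger median there is no finding.

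**Figure D4:**
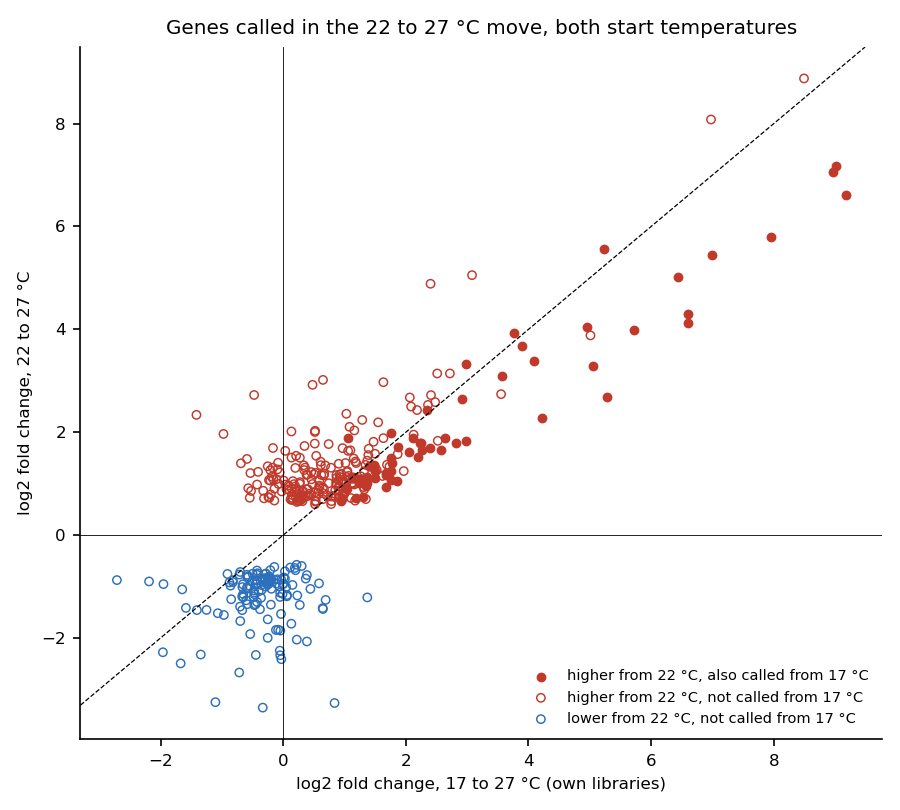
Log2 fold change over 15 min and 1 h of the genes called in the 22 to 27 °C move (vertical axis) against the same genes in the 17 to 27 °C move (horizontal axis), with filled points for genes also called from 17 °C and equal effects on the dashed line. HSP70-4 (2.68 and 5.28) and HSP17.4 (7.07 and 8.97) lie below the dashed line, AT1G53540 (8.08 and 6.98) lies above it, and the genes lower from 22 °C have a median of -0.33 from 17 °C.

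In several chaperone genes the fold change was smaller in value from 22 °C than from 17 °C. HSP70-4 had a log2 fold change of 2.68 ± 0.13 from 22 °C and 5.28 ± 0.42 from 17 °C (SE), HSP90.1 had 4.12 ± 0.15 and 6.61 ± 0.50, and Hop3 had 3.98 ± 0.14 and 5.72 ± 0.40. The 2 largest rises had higher values from 22 °C. HSP23.6 had 8.88 ± 0.50 from 22 °C and 8.49 ± 1.43 from 17 °C, and AT1G53540 had 8.08 ± 0.24 and 6.98 ± 1.06 (SE). The difference between starts was tested as an interaction over 12 libraries with edgeR. It was -2.59 ± 0.58 (SE) for HSP70-4, with an unadjusted p of 0.00148, and -2.49 ± 0.66 for HSP90.1, with an unadjusted p of 0.00437. For HSP23.6 and AT1G53540 it was smaller than its error, at 0.55 ± 5.95 and 1.10 ± 2.26 (SE, unadjusted p = 0.929 and 0.639, edgeR). No gene passed the adjusted threshold of that test, 676 having an unadjusted p under 0.05. DESeq2 on the same design called 6 genes, all with a negative difference (22 °C start minus 17 °C start). HSP70-4 (adjusted p = 0.00404, DESeq2) is a rise that was smaller from 22 °C. AT1G13609, SP1L2, AT2G18150, AT2G30766 and JAL23 were lower at 27 °C at both times of the 22 °C start. In other genes the values from the 2 starts lay closer together. HSP70T-2 had 3.92 ± 0.18 from 22 °C and 3.77 ± 0.43 from 17 °C, ERDJ3A had 3.33 ± 0.21 and 2.99 ± 0.46, and AT2G29500 had 5.55 ± 0.23 and 5.23 ± 0.56 (SE). Among the falls, IRT1 had -1.84 ± 0.17 from 22 °C and -0.12 ± 0.60 from 17 °C, and OPR3 had -1.20 ± 0.14 and -0.05 ± 0.36, with differences of -1.74 ± 1.00 and -1.15 ± 0.59 (SE) that did not pass edgeR's interaction test (unadjusted p = 0.12 and 0.0819). By list, 12 small heat shock proteins were called higher from 22 °C and 11 from 17 °C, and 23 larger chaperones from 22 °C and 18 from 17 °C. Other heat-response genes numbered 7 from 22 °C and 4 from 17 °C, and heat shock factors 2 and 3. The 8 libraries of the 17 °C start were uneven, with 9531141 to 26204053 counts each. Chloroplast and mitochondrial genes took 1.36 to 7.02% of counts in their replicate 1 and 0.23 to 0.306% in replicate 2. The part of this unevenness in the calls and errors from 17 °C was not tested. No cold, abscisic acid or touch gene (15, 14 and 33 tested) was called from 17 °C in either direction. Only 0.455% of all tested genes were called there, a share at which lists of this size may hold none.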

How the data were processed

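Every deposited file gives a raw count, an FPKM value and a TPM value per gene, as its header names them. The deposited counts are whole numbers, the deposited FPKM values carry a scaling for the length of the gene and the size of the library, and the deposited TPM values equal this FPKM rescaled to a fixed sum. The labels' protocols name 2 library kits and 2 sequencing centres but tie neither to a library. FastQC, Trimmomatic, TopHat and Picard, with TAIR10, are named per the submitters' processing notes. How reads were counted, and whether strand was used, is not given in the sources used here, so overlapping, antisense and near-identical genes are uncertain. Of 33557 genes, 32810 (97.77%) matched RefSeq by locus tag. The number of sample columns left unused was 0.

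Low counts were removed by filterByExpr, libraries were scaled by TMM, and tests were robust quasi-likelihood F tests of edgeR 4.0.16 (R 4.3.3), two-sided, with Benjamini-Hochberg adjustment over all tested genes at 0.05. The SE is the size of the log2 fold change over the square root of F. The main fit used 4 libraries with time as a term, the comparison of starts 12 libraries with an interaction (6 residual degrees of freedom), and single times a group-means fit over 27 libraries. Its spread comes from the 6 duplicated groups and is assumed to hold for lone libraries. Fold changes per time carry a prior count of 2, and those of the edgeR fits carry that program's default setting instead. The procedures were tested on simulated data. DESeq2 1.42.0, other scaling, filters, times and the replicate block were alternatives.

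The 20 gene lists, the genes and the comparison were chosen with earlier results of these data known. Named genes were the 10 highest and 10 lowest called log2 fold changes (same sign at both times, average log2 CPM 3 or more), HSP70-4, HSFA2, HSP101, PIF4 and CCA1, and up to 4 called members a list or, with none called, the 2 with the largest change. Other genes are list members given for contrast or are said to be chosen after their values were seen. In the 17-to-27 libraries deviations from the group mean correlated between equal replicate numbers within a time (r = 0.45 to 0.56, 3 pairs) and less between times (-0.077 to 0.41, 12 pairs), which pairs libraries by number at each time. Promoters of 250 bases came from RefSeq's TAIR10.1 starts, and gene coordinates are those of the files. These sources gave the same first coordinate for 44.7% of matched genes and the same last coordinate for 44.25%. Distances of cores to a start therefore hold for RefSeq only.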

Additional observations from a re-analysis of the deposited data

How the results depend on the processing

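The main limits are depth (6278278 to 10646120 counts a library) and 1 residual degree of freedom, and leaving out 1 library of a pair removes the pair. The 405 calls became 401 with RLE scaling, 415 without organelle genes, 791 without the filter on low counts (448 higher, 343 lower, 404 shared), 236 with DESeq2 (200 shared), 59 with the 4 h pair added (58 shared), 9 without the time term, 0 with the spread of all 27 libraries and 129 with the replicate block added to it. Calls were 68.4% higher, against 56.6% without the filter, 76.7% with DESeq2, 83.1% with the 4 h pair and 100% without the time term. Leaving out a pair gave 0 to 251 calls, the highest being 117 higher and 134 lower genes without the 15 min pair and with the 4 h pair, where 89 were shared with the 405. The settings that leave out a pair while adding 4 h, and the block over 27 libraries, were chosen after seeing the data. With this block the lists of endoplasmic reticulum folding, abscisic acid, salicylic acid, shoot marker and root marker genes had 0 calls. The comparison of starts stayed at 0 calls except 6 with DESeq2. At 15 min alone 1 gene passed without the filter and 27 with the replicate block, at 1 h 15 with the block, and the difference between times stayed at 0. Of 43 named called genes, 43 stayed past the threshold with RLE scaling, 42 without the filter, 33 with DESeq2 and 21 with the block. Only 6 stayed with the 4 h pair added, 6 without the time term and 0 with the spread of all 27 libraries. With a pair left out and 4 h added, 7 of 36 tested stayed without the 15 min pair and 0 of 41 without the 1 h pair. Some log2 fold changes turned sign when a pair was left out. They ran from -0.071 to 0.93 for PIF4, from -0.011 to 0.31 for CCA1 (-0.00081 without the 1 h pair), from -0.67 to 0.011 for IAA14, from -0.082 to 0.66 for ROT3, from -0.097 to 1.12 for LUX, from -0.75 to 0.14 for NAP57, from -0.49 to 0.0026 for SOC1 and from -0.23 to 0.13 for SVP (0.077 without the 1 h pair). RAB18, the only called gene among these, ran from -1.49 to 0.30. With the 4 h pair added to both, SVP was at 0.011. The cause was not tested.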
